A study of Rattus norvegicus with 9 samples.

Results

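The neutrophil genes S100a8, S100a9 and Mpo were followed across RNA sequencing libraries of rat brain tissue. They were taken from the count table by their Ensembl identifiers (S100a8, ENSRNOG00000011557; S100a9, ENSRNOG00000011483; Mpo, ENSRNOG00000008310), and all 3 were present among its 32623 genes. The table pairs no identifier with a symbol, so the symbols rest on the list that defined the 3 genes. The groups were Nano-patrol+NIR, rt-PA (recombinant tissue plasminogen activator, which dissolves clots by turning plasminogen into plasmin) and saline, with 3 libraries each. All animals underwent a modelling step that the labels leave undescribed, were injected 4.5 h after it, and gave brain tissue 3 days later. The labels give neither the strain and age of the rats nor the brain region and hemisphere. In the count table and in the sample descriptions the rt-PA libraries go by uk, and this difference in name was not resolved. No group without the modelling step, and none given Nano-patrol or NIR alone, was analysed here.

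S100a8 and S100a9 are small calcium-binding proteins that pair to form calprotectin, one of the most abundant proteins in the cytoplasm of neutrophils, and monocytes make them too. Released from the cells, the pair acts as a danger signal through Toll-like receptor 4 and the receptor for advanced glycation end products. Mpo encodes myeloperoxidase, the heme enzyme of the azurophil granules that makes hypochlorous acid from hydrogen peroxide and chloride. Its mRNA is made mainly by neutrophil precursors in the bone marrow, while circulating neutrophils carry the stored protein. Neutrophils enter brain tissue after ischemia or bleeding. In bulk tissue, fewer cells of a type and less RNA per cell cannot be told apart.

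The sequences before the start sites of S100a9 and Mpo are shown. S100a9 had larger fold changes between groups than S100a8, and Mpo is the granule gene set beside them. The sequences come from RefSeq on build GRCr8, which held an entry for 2 of the 3 genes and not for S100a8. The S100a9 stretch is chr2:178490573-178490872 on the minus strand and the Mpo stretch is chr10:73092152-73092451 on the plus strand. Each runs 5′ to 3′ from 250 bases before the annotated start to 50 bases after it. Capitals mark every match, on either strand, to TATAAA (the TATA box), TTNNGNAA (a core of the motif of C/EBP factors, which act in the myeloid lineage) or GAGGAA (a core of the motif of PU.1, another myeloid factor), and no matches overlap.
S100a9: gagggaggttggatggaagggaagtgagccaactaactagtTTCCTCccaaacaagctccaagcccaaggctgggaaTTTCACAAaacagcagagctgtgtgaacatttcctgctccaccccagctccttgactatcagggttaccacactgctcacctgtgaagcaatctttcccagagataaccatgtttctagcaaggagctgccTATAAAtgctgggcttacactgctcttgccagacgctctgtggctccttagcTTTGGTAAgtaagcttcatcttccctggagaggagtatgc
Mpo: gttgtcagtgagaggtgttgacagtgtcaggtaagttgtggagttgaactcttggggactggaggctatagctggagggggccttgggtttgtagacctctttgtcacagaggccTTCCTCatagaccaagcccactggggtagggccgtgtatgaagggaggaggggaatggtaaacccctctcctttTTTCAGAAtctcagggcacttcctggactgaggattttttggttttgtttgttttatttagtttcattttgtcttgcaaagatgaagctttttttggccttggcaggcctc
S100a9 held the TATA motif 42 bases before its start, a C/EBP match 173 bases before it and another just inside the transcript, and a PU.1 match 209 bases before it. Mpo held a C/EBP match 61 bases before its start and a PU.1 match 135 bases before it, and no TATAAA in this window. Of all 33469 promoter windows of this length, 14.2% held the TATA motif, 41.3% the C/EBP motif and 27.6% the PU.1 motif. In this assembly S100a8 and S100a9 lie next to each other with no gene between them, and 0 annotated genes overlapped any of the 3.

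All 3 genes were scarce. Library totals ran from 13059048 to 14992109 counts, and levels are given as CPM, read counts per 1000000 counts of the TMM-scaled library total. S100a9 averaged 3.07 CPM over the 9 libraries, S100a8 1.45 CPM and Mpo 0.358 CPM, scales that are not corrected for transcript length and so do not rank the genes. Among the 15402 genes abundant enough to be tested, S100a9 stood at percentile 15.4 and S100a8 at percentile 10.3 of mean log2 CPM. Mpo had too few counts to be among them. Over all tested genes, Nano-patrol+NIR 3, rt-PA 3 and saline 1 each stood apart from the other libraries of their group, with correlations across genes of 0.896 to 0.944 against 0.984 to 0.99 within the pairs that remained.

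S100a9 was highest after Nano-patrol+NIR, intermediate after saline and lowest after rt-PA. The Nano-patrol+NIR libraries held 98, 70 and 60 counts of S100a9, or 7.31, 5.31 and 4.18 CPM. The rt-PA libraries held 14, 5 and 13 counts, or 1.08, 0.381 and 0.904 CPM. The saline libraries held 31, 20 and 68 counts, or 2.1, 1.54 and 4.83 CPM. All rt-PA libraries lay below every library of the other groups, whereas saline 3 lay among the Nano-patrol+NIR libraries and above Nano-patrol+NIR 3. The mean level was 5.6 ± 1.59 CPM after Nano-patrol+NIR, 0.789 ± 0.364 CPM after rt-PA and 2.83 ± 1.76 CPM after saline (SD, n = 3 each). The spread within saline was far wider than counting error, with a variance 15.1 times that of Poisson counts. The value was 6.24 times in Nano-patrol+NIR and 2.2 times in rt-PA. At equal relative spread this measure grows with the count. SD over mean was 0.623 in saline, 0.462 in rt-PA and 0.284 in Nano-patrol+NIR.

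**Figure D1:**
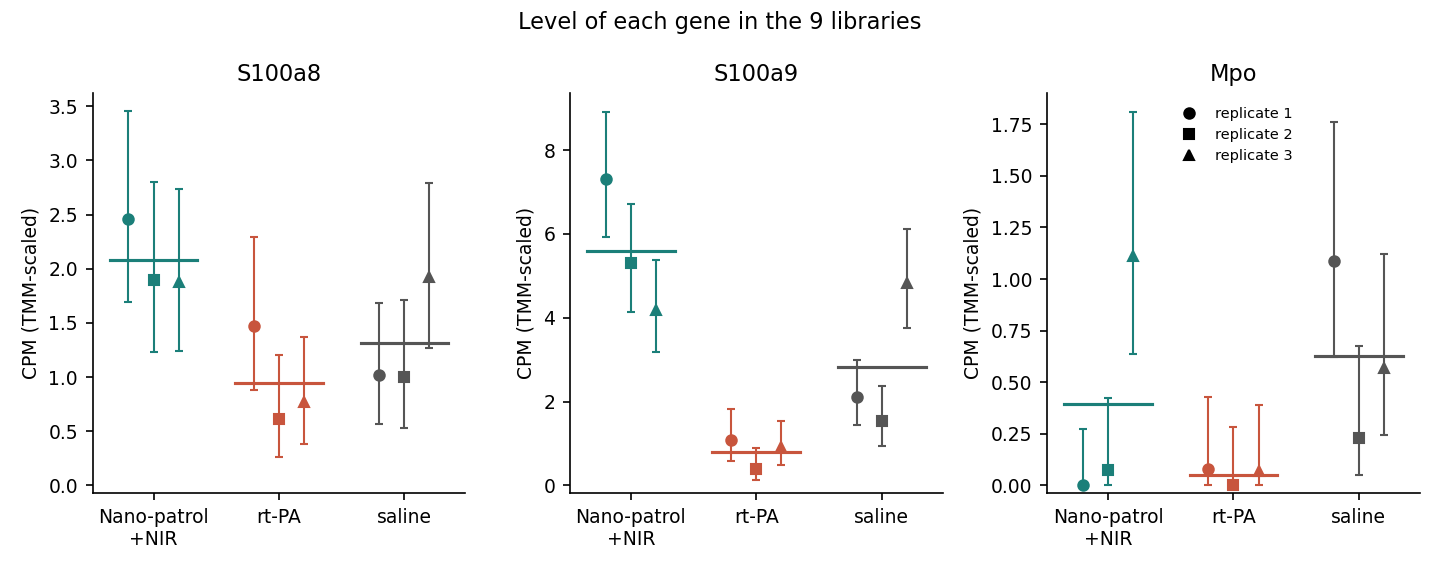
CPM of S100a8, S100a9 and Mpo in each library, by group; points are single libraries with exact 95% Poisson intervals, which cover counting error only, and horizontal lines are group means. The rt-PA libraries lie at 0.381 to 1.08 CPM of S100a9, below all others, and Mpo exceeds 1 CPM in Nano-patrol+NIR 3 and saline 1.

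The widest separation of S100a9 was between Nano-patrol+NIR and rt-PA, a contrast that asks whether brain expression differed between the 2 treatments. S100a9 was 7.02-fold higher in Nano-patrol+NIR, a log2 fold change of 2.81 (SE 0.55), with 9 of 9 pairs of libraries in that direction. Of the 15402 tested genes, 62 (0.403%) had a log2 fold change this high or higher, and S100a9 had the 65th smallest p. The unadjusted p was 0.000724 and the edgeR adjusted p was 0.17, short of the threshold of 0.05. In this contrast edgeR called 0 of the tested genes (0%), with 2121 (13.8%) at an unadjusted p under 0.05. DESeq2 called 627 genes and limma-voom 1. DESeq2 gave S100a9 an adjusted p of 0.000281. Without rt-PA 3, which stood apart over all genes, its edgeR adjusted p was 0.0301. That fit called 2047 of 15672 tested genes. Groups that did not overlap, with Nano-patrol+NIR higher, were seen for 8.89% of tested genes. The ratio of summed counts, 228 in Nano-patrol+NIR and 32 in rt-PA, was 7.04 after scaling, with an exact 95% counting interval of 4.85 to 10.5.

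Relative to saline, mean S100a9 was lower after rt-PA and higher after Nano-patrol+NIR, and neither difference passed the test. In rt-PA it stood at 0.281 of the saline level, a log2 fold change of -1.83 (SE 0.55, unadjusted p = 0.00892, edgeR adjusted p = 0.161). An unadjusted p under 0.05 was shared by 17% of tested genes in this contrast. Each rt-PA library was below each saline library, a separation with the treated group lower that 10.3% of tested genes showed. Without saline 3, the highest of its group, the log2 fold change was -1.18 (edgeR adjusted p = 0.412), while DESeq2 gave an adjusted p of 0.0335 over all 9 libraries. In this contrast DESeq2 called 1062 of 15402 tested genes. In Nano-patrol+NIR S100a9 was 1.98-fold higher than in saline, a log2 fold change of 0.98 (SE 0.51, edgeR adjusted p = 0.92), with 8 of 9 pairs of libraries in that direction. Without saline 3 that value was 1.59. edgeR called 1 gene in each of these contrasts (0.00649%), neither of them S100a8 or S100a9. Both contrasts use the same saline libraries.

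S100a8 kept the same order of group means as S100a9, with smaller differences. The Nano-patrol+NIR libraries held 33, 25 and 27 counts of S100a8, or 2.46, 1.9 and 1.88 CPM. The rt-PA libraries held 19, 8 and 11 counts, or 1.47, 0.609 and 0.765 CPM. The saline libraries held 15, 13 and 27 counts, or 1.02, 1 and 1.92 CPM. Nano-patrol+NIR and rt-PA did not overlap, as for 8.89% of tested genes with Nano-patrol+NIR higher. Saline overlapped with both, saline 3 again reaching the level of the Nano-patrol+NIR libraries. The mean level was 2.08 ± 0.332 CPM after Nano-patrol+NIR, 0.947 ± 0.457 CPM after rt-PA and 1.31 ± 0.525 CPM after saline (SD, n = 3 each).

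No S100a8 difference passed the test. Between Nano-patrol+NIR and rt-PA it was 2.19-fold, a log2 fold change of 1.13 (SE 0.45, unadjusted p = 0.034, edgeR adjusted p = 0.321), and 4.14% of tested genes had a log2 fold change at least this high. Nano-patrol+NIR differed from saline by a log2 fold change of 0.66 (SE 0.44, edgeR adjusted p = 0.9999), with 7 of 9 pairs of libraries higher in Nano-patrol+NIR. rt-PA differed from saline by -0.47 (SE 0.45, edgeR adjusted p = 0.627), with 2 of 9 pairs higher in rt-PA. Single libraries moved these values: without saline 3 the log2 fold change from saline was 1.02 for Nano-patrol+NIR and -0.07 for rt-PA, and without rt-PA 1 it was -0.91 for rt-PA. In the order Nano-patrol+NIR, saline, rt-PA, no step between neighbouring groups passed the edgeR test for S100a8 or S100a9.

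**Figure D2:**
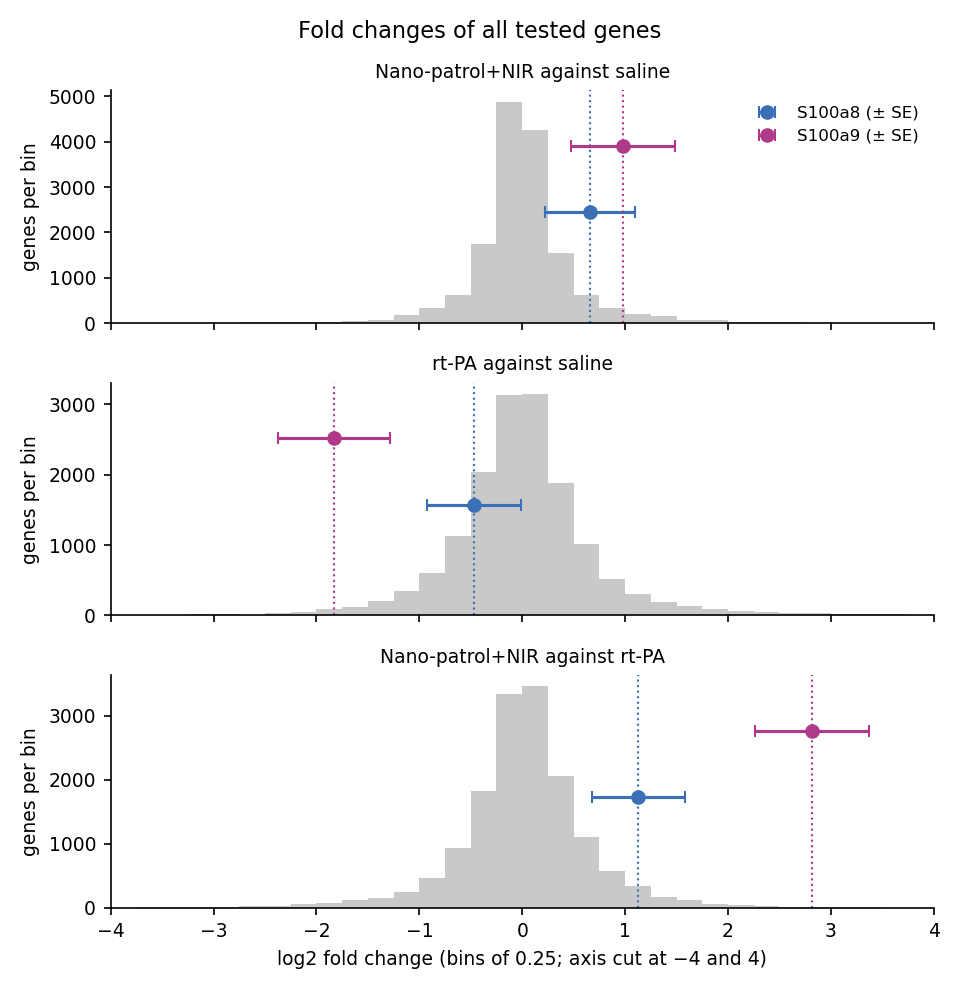
Number of tested genes per bin of log2 fold change (bins of 0.25) in each comparison, with S100a8 and S100a9 drawn as points with bars of 1 SE at their own log2 fold change; the height of the points has no meaning. S100a9 lies at -1.83 for rt-PA against saline and at 2.81 for Nano-patrol+NIR against rt-PA, in the thin tails of both distributions, and S100a8 lies nearer the centre.

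Levels of S100a8 and S100a9 varied together from library to library. Their log2 CPM correlated at Pearson r = 0.92 over the 9 libraries (exact two-sided permutation p = 0.000937, adjusted over 3 pairs of genes 0.00281), with Spearman rho = 0.933 (exact permutation p = 0.00075, adjusted 0.00225). Without rt-PA 2 and rt-PA 3, the libraries farthest from the median of S100a8, r was 0.816 (exact permutation p = 0.0284). Leaving out single libraries gave r of 0.874 to 0.982, and the deviations from the group means correlated at 0.875. Both genes of a library share its scaling and its tissue piece. Saline 3 and rt-PA 1 were the highest of their groups for both genes, and Nano-patrol+NIR 1 was the highest of all libraries for both.

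**Figure D3:**
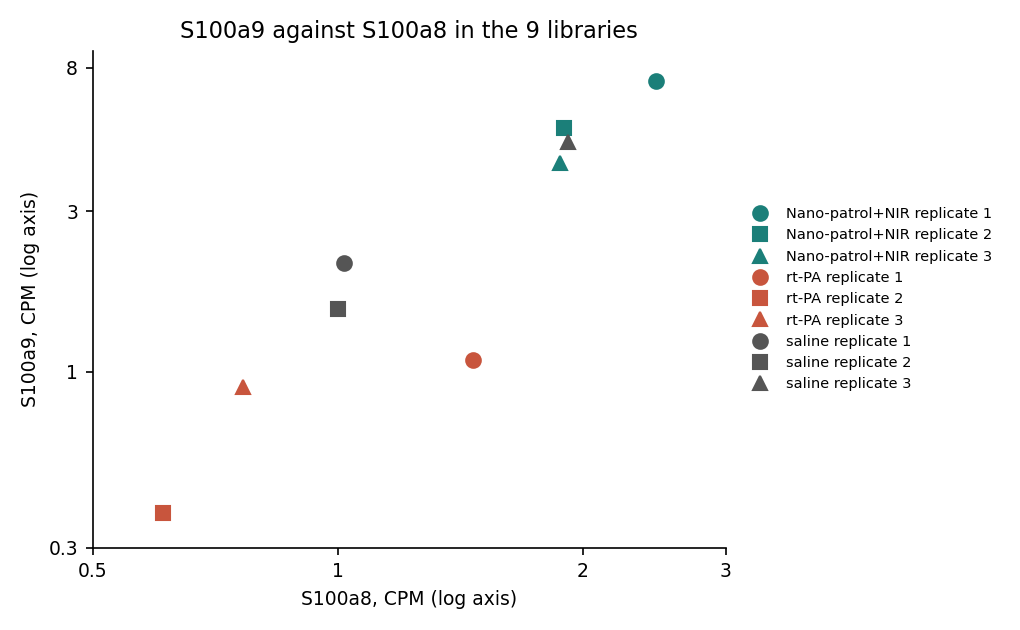
S100a9 against S100a8 in each library, both in CPM on log axes; colours are groups and symbols are replicate numbers. The levels rise together over the 9 libraries (r = 0.92): Nano-patrol+NIR 1 lies highest, at 2.46 CPM of S100a8 and 7.31 CPM of S100a9, and rt-PA 2 lowest, at 0.609 CPM of S100a8 and 0.381 CPM of S100a9.

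The share of S100a9 in the summed counts of the pair was lowest after rt-PA, a difference that did not pass the test. S100a9 supplied 74.8%, 73.7% and 69% of the summed S100a8 and S100a9 counts in the Nano-patrol+NIR libraries. It supplied 42.4%, 38.5% and 54.2% in the rt-PA libraries and 67.4%, 60.6% and 71.6% in the saline libraries. Every rt-PA library lay below every library of the other groups, and Nano-patrol+NIR overlapped with saline. Mean shares were 72.5 ± 3.1% in Nano-patrol+NIR, 45 ± 8.17% in rt-PA and 66.5 ± 5.54% in saline (SD, n = 3 each). The mean share in rt-PA was lower than in Nano-patrol+NIR (Nano-patrol+NIR minus rt-PA 27.5 percentage points) and lower than in saline (rt-PA minus saline -21.5 percentage points), both at p = 0.1 in an exact two-sided permutation test, the smallest that 3 libraries against 3 allow, and at 0.15 after adjustment over the 3 comparisons. Nano-patrol+NIR exceeded saline by 5.96 percentage points (exact permutation p = 0.2, also 0.2 after adjustment). The exact 95% binomial intervals of single rt-PA libraries were wide, 13.9 to 68.4% for the 13 counts of rt-PA 2, and cover counting error only. This share was examined after the counts had been seen.

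**Figure D4:**
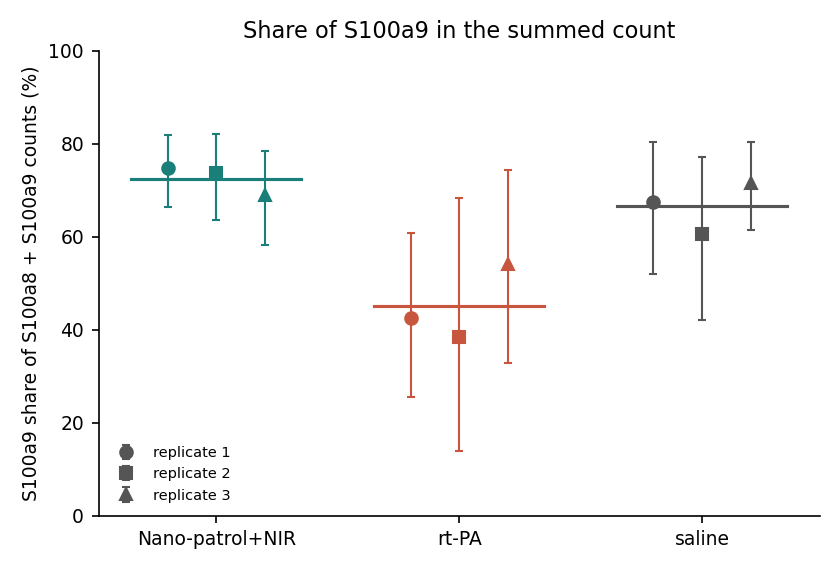
Share of S100a9 in the summed counts of S100a8 and S100a9 in each library, by group; bars are exact 95% binomial intervals for counting error and horizontal lines are group means. The rt-PA libraries lie at 38.5 to 54.2%, below the 60.6 to 74.8% of the other 6. The interval of rt-PA 1, 25.5 to 60.8%, lies below those of saline 3 and of every Nano-patrol+NIR library but Nano-patrol+NIR 3. The intervals of the remaining rt-PA libraries overlap those of all libraries of the other groups.

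Mean Mpo was also lowest after rt-PA, but the group means ran in another order, with saline and not Nano-patrol+NIR the highest. The rt-PA mean lay below that of Nano-patrol+NIR only with Nano-patrol+NIR 3 included. The Nano-patrol+NIR libraries held 0, 1 and 16 counts of Mpo, or 0, 0.0758 and 1.11 CPM. The rt-PA libraries held 1, 0 and 1 counts, or 0.0772, 0 and 0.0696 CPM. The saline libraries held 16, 3 and 8 counts, or 1.09, 0.231 and 0.569 CPM. In Nano-patrol+NIR 94.1% of the Mpo count came from Nano-patrol+NIR 3, a library that stood apart over all genes, and the highest saline value was that of saline 1, which also stood apart. The third such library, rt-PA 3, held 1 count. What sets these libraries apart, and its part in the Mpo counts, was not tested. Taking 3 counts as the limit, the count of 0 in Nano-patrol+NIR 1 allows up to 0.224 CPM, and that in rt-PA 2 allows up to 0.228 CPM.

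Mpo averaged 0.396 ± 0.622 CPM after Nano-patrol+NIR, 0.0489 ± 0.0425 CPM after rt-PA and 0.628 ± 0.431 CPM after saline (SD, n = 3 each). Each rt-PA library was below each saline library, as for 10.3% of tested genes. The mean difference of rt-PA minus saline was -0.58 CPM, and -0.351 CPM without saline 1. The summed counts, 2 in rt-PA and 27 in saline, gave a ratio of 0.0765 after scaling, with an exact 95% counting interval of 0.00882 to 0.305. With no filter on low counts the fitted log2 fold change was -3.45 (SE 1.45, unadjusted p = 0.0379), and the edgeR adjusted p over 22860 genes was 0.356. The Nano-patrol+NIR libraries spanned those of both other groups. With the same fit Nano-patrol+NIR differed from saline by -0.64 (SE 1.14, edgeR adjusted p = 1) and from rt-PA by 2.81 (SE 1.48, edgeR adjusted p = 0.55). The mean in Nano-patrol+NIR exceeded that in rt-PA by 0.348 CPM, and without Nano-patrol+NIR 3 the difference was -0.011 CPM. Correlations of Mpo over the 9 libraries were r = 0.157 with S100a8 (rho = 0.151) and r = 0.298 with S100a9 (rho = 0.167), with exact permutation p of 0.678 (0.7 for rho) and 0.426 (0.666 for rho), and adjusted p of 0.639 or more. Without the 2 libraries farthest from the median of the other gene, r was -0.375 with S100a8 (exact permutation p = 0.392) and 0.436 with S100a9 (exact permutation p = 0.307).

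The genes most like S100a8 and S100a9 over the 9 libraries were also scarce. Likeness was measured as Pearson r of log2 CPM with the mean log2 CPM of the pair, to which S100a8 itself correlated at 0.963 and S100a9 at 0.992. Of the other tested genes, 110 (0.714%) reached an r of 0.8 and 6 (0.039%) an r of 0.9. The first was ENSRNOG00000017944 (r = 0.952), with 17, 16 and 16 counts in Nano-patrol+NIR, 7, 4 and 9 in rt-PA and 10, 6 and 17 in saline. The second was ENSRNOG00000008507 (r = 0.911), with 43, 37 and 36 counts in Nano-patrol+NIR, 25, 15 and 18 in rt-PA and 18, 21 and 31 in saline. Both were higher in each Nano-patrol+NIR library than in each rt-PA library, as for 8.89% of tested genes. Both had their highest saline count in saline 3. These genes were chosen for their likeness over the same 9 libraries, so the shared pattern follows from the choice and adds no separate evidence.

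**Figure D5:**
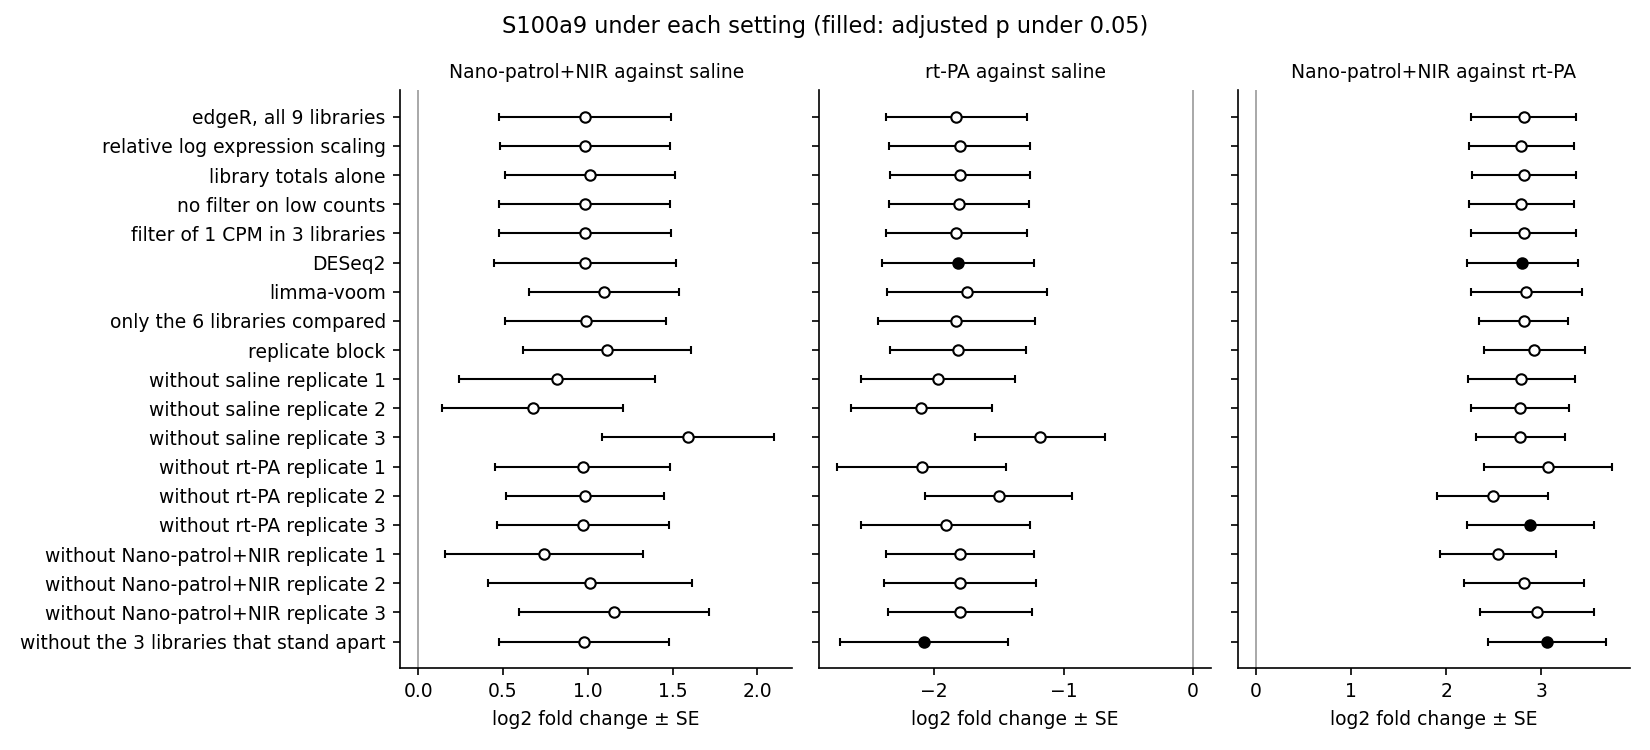
log2 fold change of S100a9 with bars of 1 SE in each comparison, under edgeR on all 9 libraries and each alternative; filled points have an adjusted p under 0.05. Values for Nano-patrol+NIR against rt-PA lie between 2.49 and 3.07 throughout, while those for rt-PA against saline lie between -2.1 and -1.18 and those for Nano-patrol+NIR against saline between 0.67 and 1.59.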

How the data were processed

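RNA from rat brain tissue was selected by poly(A) tail and made into PCR-amplified libraries, per the labels' protocols. StringTie 1.3.1, HISAT2, Bowtie2 2.2.8 and fastp 0.18.0 are listed in the submitters' processing notes, with no role for each. Not given in the sources used here are how reads were counted and with which strand setting, build and annotation. The values deposited by the authors are raw read counts per Ensembl gene in each library. Groups and replicate numbers came from sample titles, and the uk columns were matched to the rt-PA libraries through the sample descriptions. Nothing in the labels says that each library is a separate animal, and the p-values therefore describe spread between libraries that may be technical.

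The main test used edgeR 4.0.16 in R 4.3.3, with filterByExpr (count minimum 10), TMM scaling, 1 fit of all 9 libraries with 3 group means, the robust quasi-likelihood F test, and Benjamini-Hochberg adjustment over all 15402 genes tested, with a threshold of 0.05. Standard errors are the log2 fold change over the square root of F. log2 CPM used a prior count of 2. Alternatives included DESeq2 1.42.0 and limma-voom in limma 3.58.1. The edgeR, DESeq2 and limma-voom tests of filtered genes were checked on simulated counts, and the permutation tests were not. The labels give no meaning to shared replicate numbers. Deviations from group means of same-numbered libraries correlated at 0.113 to 0.278 in all 3 pairs of Nano-patrol+NIR with rt-PA. Differently numbered libraries of these groups correlated at -0.351 to 0.294. Same-numbered libraries correlated at -0.362 to 0.228 with saline, over 0.1 in 1 of 3 pairs for either treatment. Since the ranges overlap, these values cannot decide whether the numbers mark pairs. The main fit and the permutation tests used no pairing, and the replicate number was a block only in an alternative fit. Intervals on counts cover counting error only and leave out spread between libraries. They also treat reads as independent, whereas PCR copies are not independent molecules. For 3 libraries against 3 the smallest exact two-sided permutation p is 0.1.

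The genes, tests and alternatives were chosen with earlier results of these data known. Lists of other neutrophil genes and of cell type markers, written as symbols, were not used here, since the reference table holds an Ensembl identifier for 0 of its 47357 genes. The tissue label was therefore not checked against markers. Named genes were the 3 neutrophil genes and, by identifier, the 2 most like S100a8 and S100a9.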

Additional observations from a re-analysis of the deposited data

How the results depend on the processing

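S100a8 and S100a9 kept the direction of each difference in all 18 alternatives per comparison, and S100a8 stayed short of the threshold in each. S100a9 passed it for rt-PA against saline with DESeq2 (log2 fold change -1.81, adjusted p = 0.0335) and with Nano-patrol+NIR 3, rt-PA 3 and saline 1 left out together (-2.08, edgeR adjusted p = 0.0313), over a range of adjusted p from 0.0313 to 0.425. It passed for Nano-patrol+NIR against rt-PA with DESeq2 (2.8, adjusted p = 0.000281), without those 3 libraries (3.06, edgeR adjusted p = 0.00517) and without rt-PA 3 alone (2.88, edgeR adjusted p = 0.0301), over a range from 0.000281 to 0.551. Those 3 libraries were left out for lying farthest from their groups, which makes the p-values too small. Without them edgeR called 6710 and 6195 of 15309 genes, in that order, so passing does not single out S100a9.

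Leaving out single libraries gave, for Nano-patrol+NIR against rt-PA, log2 fold changes of 2.49 to 3.07 for S100a9. Mean Mpo differences, 1 group minus the other, moved with single libraries. They ran from -0.591 to -0.0033 CPM for Nano-patrol+NIR against saline (-0.232 over all libraries), from -0.778 to -0.351 CPM for rt-PA against saline (-0.58) and from -0.011 to 0.546 CPM for Nano-patrol+NIR against rt-PA (0.348). Without the 3 libraries together the last was -0.00068 CPM. Without those 3 libraries the S100a9 share in Nano-patrol+NIR minus rt-PA was 33.8 percentage points; with single libraries left out it was 24.2 to 32. The correlation of Mpo with S100a8 was -0.0395 on deviations from group means, -0.375 without the 2 libraries farthest from the median, and -0.098 to 0.444 without single libraries; with S100a9 it was -0.079 on such deviations.

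Over all genes, in the order Nano-patrol+NIR against saline, rt-PA against saline and Nano-patrol+NIR against rt-PA, edgeR called 1, 1 and 0. With DESeq2 the counts were 132, 1062 and 627, with limma-voom they were 0, 0 and 1, and fits of only the 6 libraries compared gave 3, 0 and 0. edgeR called 35, 2112 and 2047 without rt-PA 3 and 501, 6710 and 6195 without the 3 libraries. For none of these changes was the cause tested. With the replicate number as a block the counts were 0, 0 and 0 (741, 2279 and 1865 at an unadjusted p under 0.05), and S100a9 had log2 fold changes of 1.11, -1.81 and 2.93 (edgeR adjusted p = 0.9999, 0.229 and 0.303). The block changed no call of S100a8 or S100a9. Depth limits Mpo, at 0 to 16 counts per library.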
